A study of Mus musculus with 16 samples.

Results

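The transcription factor p53, encoded by Trp53, and 8 genes it is known to switch on were followed through growth arrest in mouse embryonic fibroblasts, which are connective tissue cells grown from dissociated embryos. The genes were chosen by symbol, and each had 1 row in the count table, so they are 9 of 23100 genes. All 9 passed the filter on low counts. They are Trp53 itself and its targets Mdm2, Ccng1, Phlda3, Trp53inp1, Bax, Bbc3, Perp and Zmat3.

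The p53 protein binds DNA and raises the transcription of genes for cell cycle arrest, DNA repair and cell death when DNA is damaged or a cell is otherwise stressed. Its amount is set mainly by how fast the protein is degraded, so a change in Trp53 mRNA need not be a change in p53 activity. Mdm2, a ubiquitin ligase, marks p53 for degradation and is itself a p53 target, which closes a negative feedback loop. Plagl1, also called Zac1, encodes an imprinted zinc finger transcription factor that, like p53, can arrest the cell cycle and induce apoptosis when overexpressed.

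The cells came from C57BL/6 embryos of embryonic day 13.5 and were either wildtype (Zac+/+) or mutant (Zac+/-) for Zac1, grown in medium with serum and given no other treatment according to the labels. The sample titles mark the mutant lines as KOpat, taken here to mean a knockout allele inherited from the father. Each genotype was represented by 2 cell lines, called here replicates 1 and 2, and each line was harvested at day 2 in vitro, when the labels call the cells proliferative, and at days 8, 10 and 12, when they call them quiescent. Each line is 1 culture source followed over time, so the 3 quiescent harvests of a line are repeat samples of it. The sources used here do not say whether a line came from 1 embryo or from several. The 16 libraries held 28079241 to 61039793 reads assigned to genes. Levels are given as CPM, reads scaled to a common library total with TMM factors, and can be compared for 1 gene between libraries but not between genes, since gene length is not taken into account.

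Plagl1 checked the genotype labels. At day 2 it stood at 45.4 and 37.7 CPM in the wildtype lines and at 9.14 and 7.59 CPM in the mutant lines. At quiescence the wildtype libraries ranged from 128 to 231 CPM and the mutant libraries from 40.5 to 60.3 CPM, so the genotypes did not overlap in either state. The 8 fibroblast markers were detected in every library. The summed level of 10 cell cycle genes was 1656 to 1943 CPM at day 2 and 247 to 547 CPM at the quiescent days. The summed level of 8 macrophage markers ran from 8.12 to 386 CPM over the libraries. It went from 15.6 and 67.5 CPM at day 2 to 64.5 and 215 CPM at day 12 in wildtype replicates 1 and 2, and from 90.8 and 8.12 to 386 and 30.6 CPM in mutant replicates 1 and 2. All 8 markers were higher at quiescence in both genotypes (median log2 1.19 and 1.72), though edgeR called none, and their part in the changes of the p53 genes was not tested. The sum was higher in wildtype replicate 2 and mutant replicate 1 than in the other line of the same genotype at every day.

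The p53 protein binds a pair of short repeats, and windows of RefSeq promoters (build GRCm38.p6, 250 bases before to 50 bases after the start site) were searched for them. Windows were found for 6 of the 9 genes, namely Trp53, Mdm2, Ccng1, Phlda3, Bax and Bbc3, with 3 windows for Bbc3. The search used the consensus p53 repeat of 10 bases, which reads the same on both strands, with no mismatch. It also used the full site of 20 bases with no spacer and up to 3 mismatches. In the full site only the C and the G of each central core had to be kept, and the bases between them could mismatch. An exact single repeat was found in 8.36% of 32851 windows of the same length and the full site in 1.38%. The windows with a match are shown because they hold letters that match the p53 consensus. Capitals mark the match, which is a full site in Ccng1, Trp53 and Bbc3 and a single repeat in Mdm2 and Bax.
Ccng1 (chr11:40755237-40755536, minus strand): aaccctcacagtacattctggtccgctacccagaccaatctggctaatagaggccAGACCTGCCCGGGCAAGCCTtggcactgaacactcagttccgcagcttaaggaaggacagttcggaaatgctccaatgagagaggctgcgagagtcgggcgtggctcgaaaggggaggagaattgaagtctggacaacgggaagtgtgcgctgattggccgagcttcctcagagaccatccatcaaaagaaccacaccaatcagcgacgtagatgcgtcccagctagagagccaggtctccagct
Trp53 (chr11:69580109-69580408, plus strand): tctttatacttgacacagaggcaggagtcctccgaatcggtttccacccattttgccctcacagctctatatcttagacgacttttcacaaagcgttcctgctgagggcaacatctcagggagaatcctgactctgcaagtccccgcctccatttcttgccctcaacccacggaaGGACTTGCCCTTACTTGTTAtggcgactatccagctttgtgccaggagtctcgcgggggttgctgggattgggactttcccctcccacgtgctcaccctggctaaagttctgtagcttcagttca
Bbc3 (chr7:16309333-16309632, plus strand): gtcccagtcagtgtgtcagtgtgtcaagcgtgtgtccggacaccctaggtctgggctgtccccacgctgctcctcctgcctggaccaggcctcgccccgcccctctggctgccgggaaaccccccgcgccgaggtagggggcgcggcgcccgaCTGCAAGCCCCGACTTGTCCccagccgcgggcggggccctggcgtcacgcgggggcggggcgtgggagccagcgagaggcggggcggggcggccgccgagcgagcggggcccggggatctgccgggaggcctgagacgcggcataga
Mdm2 (chr10:117710709-117711008, minus strand): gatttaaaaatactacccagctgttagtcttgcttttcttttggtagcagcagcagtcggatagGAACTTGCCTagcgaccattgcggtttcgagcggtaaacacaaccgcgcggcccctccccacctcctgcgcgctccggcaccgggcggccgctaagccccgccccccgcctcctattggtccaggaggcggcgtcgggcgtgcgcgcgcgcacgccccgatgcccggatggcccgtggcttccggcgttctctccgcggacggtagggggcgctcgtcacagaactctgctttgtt
Bax (chr7:45466849-45467148, minus strand): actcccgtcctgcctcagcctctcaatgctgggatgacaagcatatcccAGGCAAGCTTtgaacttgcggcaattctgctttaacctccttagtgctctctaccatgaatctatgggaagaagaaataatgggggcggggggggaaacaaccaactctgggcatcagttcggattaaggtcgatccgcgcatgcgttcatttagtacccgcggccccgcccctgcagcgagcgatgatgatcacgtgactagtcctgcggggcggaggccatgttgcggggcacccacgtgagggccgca

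The match in Ccng1 began 195 bases before the start site and had 1 mismatch to the full site, inside the core of its first repeat. In Trp53 it began 75 bases before the start site and in Bbc3 97 bases before it, each with 3 mismatches. The single repeats began 186 bases before the start site in Mdm2 and 201 bases before it in Bax. The window of Phlda3 and the other windows of Bbc3 held no match, which says only that these letters are not in those windows. The matches are descriptions of sequence, and binding was not measured. Genes with a match went different ways at quiescence in wildtype lines, where Bbc3 rose, Trp53, Mdm2 and Bax fell and Ccng1 did not pass the test.

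The comparison of quiescent with proliferative cells asked how the p53 genes behaved as the cells stopped dividing. Trp53 mRNA fell to 0.503 of its level in wildtype lines and to 0.574 in mutant lines, while its targets did not move together. In wildtype lines Trp53inp1, Bbc3 and Zmat3 rose, Trp53, Mdm2 and Bax fell, and Ccng1, Phlda3 and Perp did not pass the test. In mutant lines Trp53inp1, Bbc3 and Perp rose, Trp53 and Bax fell, and Mdm2, Ccng1, Phlda3 and Zmat3 did not pass. Thus 6 of 9 genes were called in wildtype lines, where 47.6% of 15740 genes were called (23.9% higher and 23.7% lower), and 5 of 9 in mutant lines, where 42.1% were called (21.1% higher and 21% lower). Calls are edgeR quasi-likelihood tests with a Benjamini-Hochberg adjusted p under 0.05 over all genes. In these bulk cultures fewer cells of a type and less RNA per cell cannot be told apart.

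**Figure D1:**
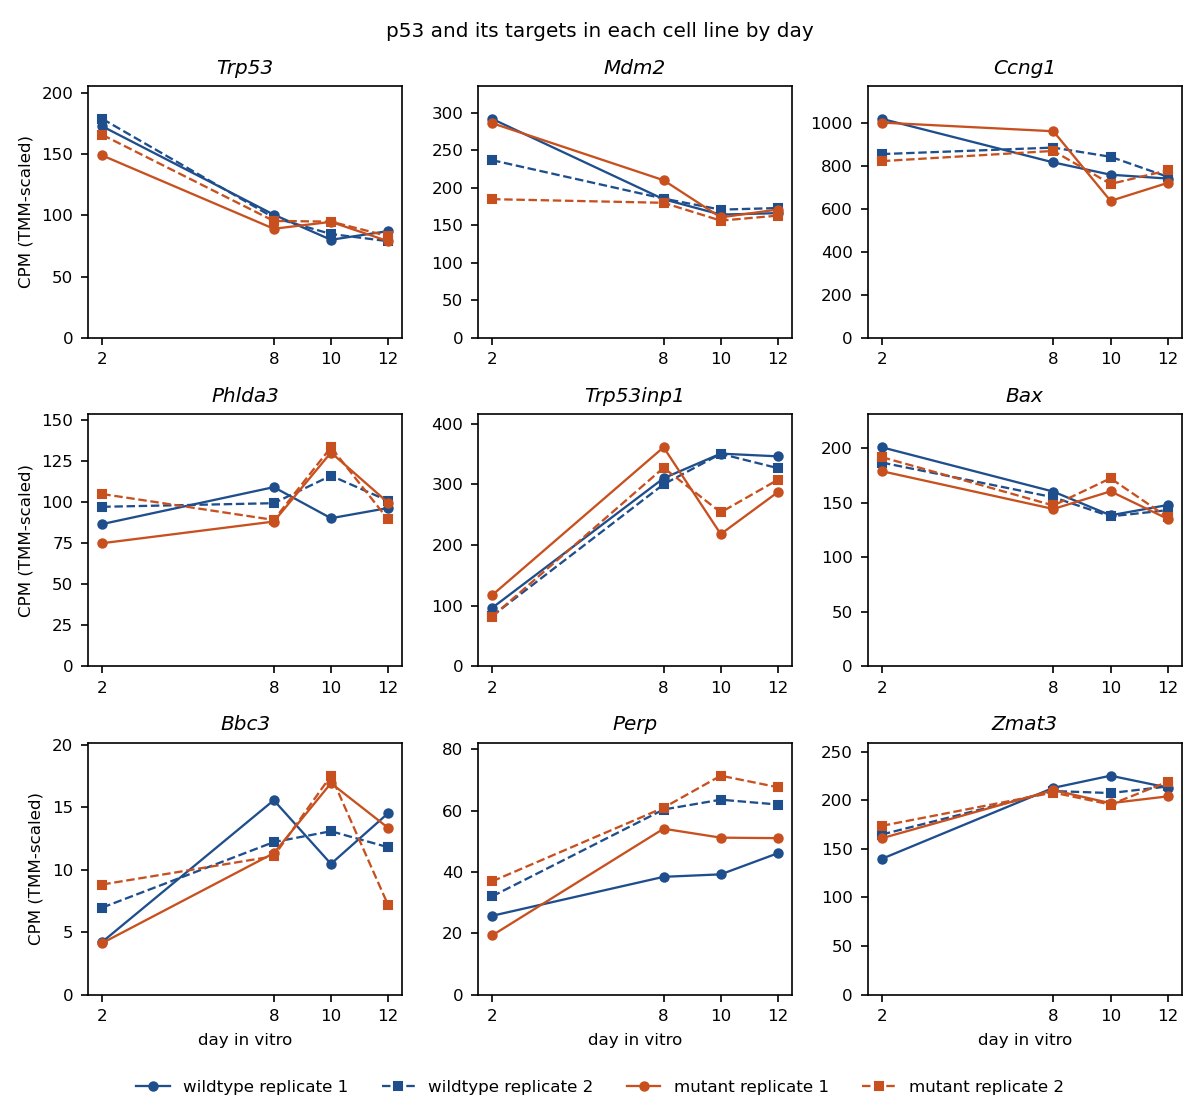
Level of each gene (CPM after TMM scaling, vertical axis from 0) against day in vitro for the 4 cell lines, wildtype in blue and mutant in orange, replicate 1 solid and replicate 2 dashed. Trp53 lies between 149 and 179 CPM at day 2 and between 78.9 and 101 CPM from day 8 on, while Trp53inp1 lies between 81.6 and 117 CPM at day 2 and between 218 and 361 CPM afterwards.

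Trp53 stood at 173 and 179 CPM in the wildtype lines at day 2 and at 149 and 166 CPM in the mutant lines. At quiescence the 6 wildtype libraries ranged from 78.9 to 101 CPM with a median of 86.0, and the 6 mutant libraries from 78.9 to 95.5 CPM with a median of 91.9. Every day 2 library thus lay above every quiescent library, and the genotypes overlapped at quiescence. The log2 fold change was -0.99 in wildtype (SE 0.10, edgeR adjusted p = 3.86e-05) and -0.80 in mutant lines (SE 0.10, edgeR adjusted p = 1.84e-04), with n = 2 lines per group. Trp53 was called lower in both genotypes under every alternative setting, including each that left out 1 line. A processed pseudogene of Trp53 exists in the mouse genome, so some reads of this gene may be uncertain, depending on how repeated alignments were counted.

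Mdm2, the ubiquitin ligase that restrains p53, was spread widely over the lines at day 2. It stood at 292 and 237 CPM in the wildtype and at 286 and 185 CPM in the mutant replicates 1 and 2. At quiescence it ranged from 164 to 186 CPM in wildtype libraries and from 156 to 210.2 CPM in mutant libraries. The wildtype states did not overlap, whereas the day 2 library of mutant replicate 2 lay within the quiescent range of the mutant lines. The log2 fold change was -0.60 in wildtype (SE 0.19, edgeR adjusted p = 0.0249) and -0.43 in mutant lines (SE 0.19, edgeR adjusted p = 0.0909). With the line as a block the mutant value was -0.40 and was called (edgeR adjusted p = 0.0471). The mutant fall was also called by DESeq2, without mutant replicate 2 and with day 8 left out, and the wildtype fall was not called when either wildtype replicate was left out.

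Ccng1 (cyclin G1), which recruits a phosphatase to Mdm2 and takes part in the feedback on p53, stood at 1021 and 857 CPM in the wildtype lines at day 2 and at 1004 and 824 CPM in the mutant lines. The quiescent libraries ranged from 743 to 887 CPM in wildtype and from 639 to 963 CPM in mutant lines, so the states overlapped in both genotypes. Its log2 fold change was -0.23 in wildtype (95% interval -0.52 to 0.06) and -0.22 in mutant lines (-0.50 to 0.07), with edgeR adjusted p of 0.166 and 0.202. All 4 lines were lower at quiescence, by -0.39 and -0.35 on the log2 scale in replicates 1 and by -0.06 and -0.07 in replicates 2. The size of the fall was thus close within a replicate number and differed between the numbers. With day 8 left out of the quiescent sum the mutant value was -0.38 and was called (edgeR adjusted p = 0.0464).

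Phlda3, which competes for membrane lipids and so restrains Akt signalling, stood at 86.8 and 97.3 CPM in the wildtype lines at day 2 and at 75.1 and 105 CPM in the mutant lines. At quiescence it ranged from 90.3 to 116 CPM in wildtype and from 88.3 to 134 CPM in mutant libraries, overlapping with day 2 in both. The log2 fold change was 0.15 in wildtype (95% interval -0.18 to 0.49) and 0.24 in mutant lines (-0.10 to 0.57), with edgeR adjusted p of 0.428 and 0.235. In mutant lines the value rested on 1 line, with 0.53 without mutant replicate 2, where it was called, and -0.02 without mutant replicate 1.

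Zmat3, a zinc finger protein that binds RNA, stood at 139.7 and 165 CPM in the wildtype lines at day 2 and at 161 and 174 CPM in the mutant lines. All 12 quiescent libraries lay higher, from 207 to 225 CPM in wildtype and from 195 to 219 CPM in mutant lines. The log2 fold change was 0.49 in wildtype (SE 0.11, edgeR adjusted p = 0.00525) and 0.29 in mutant lines (SE 0.11, edgeR adjusted p = 0.0607). Whether the changes differed between genotypes was tested as an interaction and gave -0.20 (95% interval -0.55 to 0.15), so the call in 1 genotype does not show a difference between them. The wildtype rise was not called without wildtype replicate 1, and the mutant rise was called by DESeq2, with the stricter filter on low counts and with day 10 left out.

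Trp53inp1, a stress-induced protein that acts with p53 in cell death and takes part in autophagy, changed most of the 9. At day 2 it stood at 96.1 and 82.8 CPM in the wildtype lines and at 117 and 81.6 CPM in the mutant lines. At quiescence it ranged from 299.9 to 350.5 CPM in wildtype with a median of 336, and from 218 to 361 CPM in mutant libraries with a median of 297. The states did not overlap, and the lowest quiescent library, mutant replicate 1 at day 10, was still above the highest day 2 library. The level rose 3.70-fold in wildtype (log2 1.89, SE 0.16, edgeR adjusted p = 1.35e-05) and 2.94-fold in mutant lines (log2 1.55, SE 0.16, edgeR adjusted p = 5.32e-05). The rise was called in both genotypes under every alternative setting.

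The 3 targets best known from cell death went different ways. Bax, which permeabilises the outer mitochondrial membrane, stood at 201 and 187 CPM in the wildtype lines at day 2 and at 179 and 192 CPM in the mutant lines. At quiescence it ranged from 137 to 160.0 CPM in wildtype and from 135 to 172 CPM in mutant libraries, below every day 2 library. It fell by a log2 fold change of -0.40 in wildtype (edgeR adjusted p = 0.00776, SE 0.10) and -0.30 in mutant lines (SE 0.10, edgeR adjusted p = 0.0342). The wildtype fall was not called without either wildtype replicate. The mutant fall was not called with the line as a block (-0.30, edgeR adjusted p = 0.0803), when any 1 of the 4 lines or day 8 was left out, or with the mutant libraries alone. Bax overlaps the gene model Gm45808 on the same strand in the GENCODE annotation of GRCm38, so its reads are uncertain to that extent.

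Bbc3, which encodes the BH3-only protein Puma, was the gene of the 9 with the fewest reads, down to 113 reads in a library. It stood at 4.22 and 6.97 CPM in the wildtype lines at day 2 and at 4.13 and 8.81 CPM in the mutant lines. At quiescence it ranged from 10.5 to 15.6 CPM in wildtype, above both day 2 libraries, and from 7.17 to 17.5 CPM in mutant libraries, where replicate 2 at day 12 lay below the day 2 library of the same line. It rose 2.31-fold in wildtype (log2 1.21, SE 0.34, edgeR adjusted p = 0.0182) and 2.01-fold in mutant lines (log2 1.00, SE 0.34, edgeR adjusted p = 0.0423). By line the rise was 1.71 and 1.75 on the log2 scale in replicates 1 and 0.82 and 0.50 in replicates 2. The wildtype rise was not called without wildtype replicate 1, and the mutant rise was not called without mutant replicate 1 or either wildtype line, with no filter on low counts, or with day 10 left out.

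Perp, a tetraspan membrane protein that takes part in p53-dependent death and is a component of desmosomes in epithelia, stood at 25.7 and 32.0 CPM in the wildtype lines at day 2 and at 19.3 and 36.9 CPM in the mutant lines. At quiescence it ranged from 38.4 to 63.6 CPM in wildtype and from 51.0 to 71.4 CPM in mutant libraries, so all 12 lay above all 4 at day 2. The log2 fold change was 0.84 in wildtype (SE 0.33, edgeR adjusted p = 0.0758) and 1.06 in mutant lines (SE 0.33, edgeR adjusted p = 0.0390). With the line as a block, which removes the lasting gap between replicates 1 and 2 of this gene, the wildtype value was 0.82 and was called (edgeR adjusted p = 0.00101). The wildtype rise was also called by DESeq2, with the stricter filter on low counts, with the wildtype libraries alone and when either mutant line was left out. It was not called with RLE scaling, with no filter on low counts, or when either wildtype line or any quiescent day was left out. The mutant rise was not called without mutant replicate 1 or either wildtype line, with no filter on low counts, or with the mutant libraries alone. Of 12 tested epithelial and desmosome markers, 7 fell and 1 rose in wildtype lines, and 9 fell and 1 rose in mutant lines. The summed level of all 14 such markers went from 182 to 206 CPM at day 2 to 56.8 to 106 CPM at quiescence. Among them Epcam and Krt5 were at 0 in 9 libraries each, and the part of epithelial cells in the rise of Perp was not tested.

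**Figure D2:**
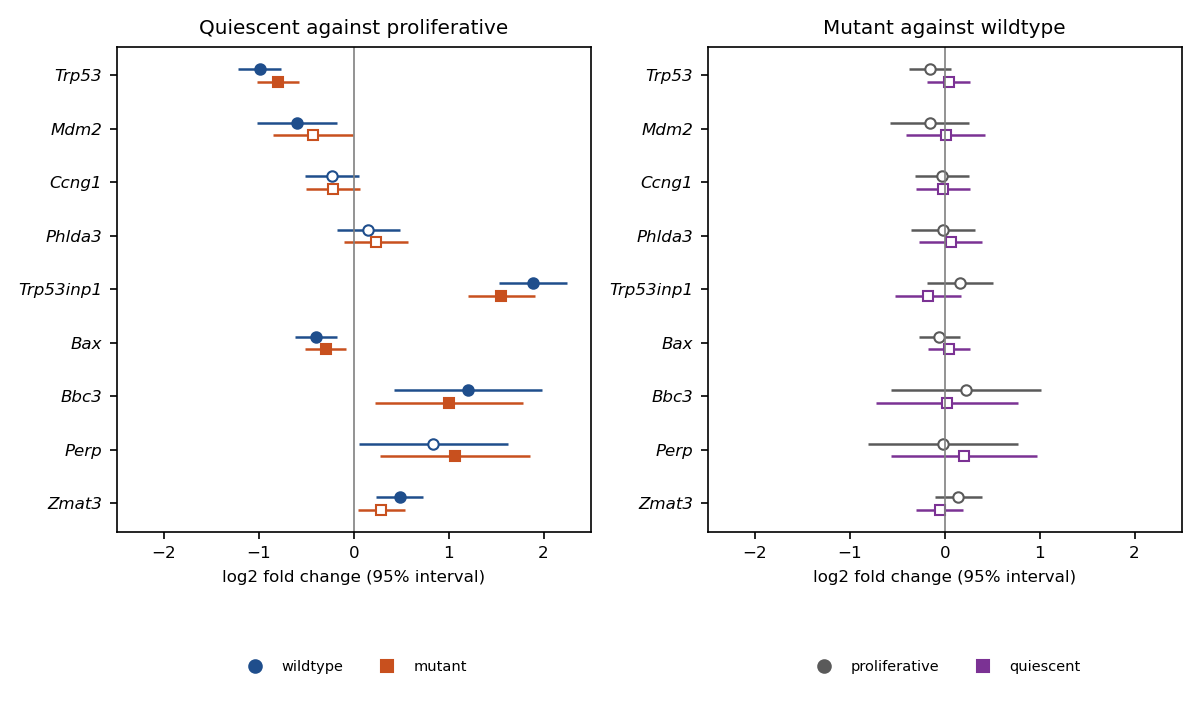
Log2 fold change of each gene with its 95% interval (edgeR), for quiescent against proliferative cells on the left (wildtype circles, mutant squares) and for mutant against wildtype cells on the right (proliferative circles, quiescent squares). Filled symbols passed the test at an adjusted p under 0.05: they run from -0.99 for Trp53 to 1.89 for Trp53inp1 on the left, and the right panel has none.

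Counted by line, each of the 9 genes moved in the same direction in 4 of 4 lines. Trp53, Mdm2, Ccng1 and Bax were lower at quiescence in every line, and Phlda3, Trp53inp1, Bbc3, Perp and Zmat3 were higher. Over all 15740 genes, 68.7% kept 1 direction in the 4 lines. The smallest of these steps was 0.0043 on the log2 scale, for Phlda3 in mutant replicate 2. For 5 of the 9 genes (Trp53, Trp53inp1, Bax, Perp and Zmat3) the 4 day 2 libraries did not overlap with the 12 quiescent libraries, and this held for 41.7% of 15439 genes.

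At day 2 most of the genes differed between the lines of replicate 1 and those of replicate 2, whatever the genotype. Mdm2, Ccng1 and Trp53inp1 were higher in both replicate 1 lines than in both replicate 2 lines, and Phlda3, Bbc3, Perp and Zmat3 were lower. These 7 of 9 genes stand beside 51.4% of 15439 genes whose lines did not overlap in this way at day 2. The counts were 2 of 9 at day 8 (39.3% of genes), 1 at day 10 (36.6%) and 4 at day 12 (51.2%), and Perp was higher in both replicate 2 lines at every day. The day 2 libraries of replicate 1 held 35487131 and 28079241 reads and those of replicate 2 held 61039793 and 55936798. The part of depth in this gap was not tested, and the labels give these lines a shared letter without saying what it marks.

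The wider p53 pathway was described with 3 further lists. Of 37 other p53 targets, 15 rose and 9 fell in wildtype lines (median log2 0.19, against 0.05 for all genes tested), and 14 rose and 10 fell in mutant lines (median 0.10, against 0.05). Over all genes 23.9% were called higher and 23.7% lower in wildtype lines, and 21.1% and 21% in mutant lines. Steap3, an endosomal ferrireductase, rose from a mean of 13.7 ± 3.14 CPM to 84.3 ± 45.5 in wildtype lines (± SD, n = 2), with a log2 fold change of 2.62 (edgeR adjusted p = 0.00580, SE 0.47). Cd82, a tetraspanin known as a metastasis suppressor, went from 12.6 ± 3.67 to 55.1 ± 18 CPM (log2 2.12). The death receptor gene Fas went from 7.60 ± 1.02 to 29.6 ± 2.94 CPM (log2 1.97) and the extracellular sulfatase gene Sulf2 from 124 ± 24.2 to 333 ± 1.08 CPM (log2 1.42). In the other direction, the kinase gene Dyrk3 fell from 9.49 ± 0.42 to 1.68 ± 0.09 CPM (log2 -2.50) and the ephrin receptor gene Epha2 from 176 ± 44.7 to 58.1 ± 13.1 CPM (log2 -1.60). All 6 were called in the same direction in mutant lines.

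Cdkn1a, the cyclin-dependent kinase inhibitor p21 through which p53 arrests the cell cycle, is named although it falls outside the rule for naming genes. It went from 503 ± 41.3 to 650.4 ± 16 CPM in wildtype lines, a log2 fold change of 0.37 (edgeR adjusted p = 0.0306, SE 0.12), and rose by 0.38 on the log2 scale in mutant lines (edgeR adjusted p = 0.0301). Its rise was thus small beside that of Trp53inp1. Without wildtype replicate 1 the counts of the list in wildtype lines were 10 rising and 5 falling, and without wildtype replicate 2 they were 11 and 5. The 10 falling in mutant lines became 5 without mutant replicate 2.

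Among genes that act on p53, 7 of 35 tested rose and 15 fell in wildtype lines (median log2 -0.29, against 0.05 for all genes), and 6 rose and 11 fell in mutant lines (median -0.14, against 0.05). The shares of all genes were 23.9% higher and 23.7% lower in wildtype and 21.1% and 21% in mutant lines. Cdkn2a, whose locus encodes the Mdm2 inhibitor p19Arf and the kinase inhibitor p16Ink4a, rose from 38.1 ± 3.25 to 93.9 ± 15.9 CPM, a log2 fold change of 1.30 (edgeR adjusted p = 3.90e-04, SE 0.19), and counts per gene do not separate its products. Trp63, the p53 family member of stratified epithelia, was read 1 and 11 times at day 2 in the wildtype lines (0.029 and 0.18 CPM) and stood at 3.08 and 7.90 CPM at quiescence. A count of 3 corresponds to 0.09 and 0.05 CPM in those day 2 libraries, and no fold change is given. The checkpoint kinase gene Chek1 fell from 23.2 ± 5.39 to 6.41 ± 0.55 CPM (log2 -1.85), and Setd8, which methylates histones and p53, from 100.4 ± 2.40 to 43.4 ± 0.23 CPM (log2 -1.21). Npm1, a nucleolar protein that binds Arf, had a log2 fold change of -1.07, and Wrap53, a telomerase Cajal body protein whose gene lies next to Trp53, one of -1.03. The 5 genes other than Trp63 were called in both genotypes. Without wildtype replicate 1 the counts in wildtype lines were 4 rising and 8 falling, and without wildtype replicate 2 they were 3 and 9.

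The BCL2 family and caspase genes, on which Bax and Bbc3 act, had 4 of 17 tested genes higher and 6 lower in wildtype lines, and 3 higher and 6 lower in mutant lines. Over all genes 23.9% and 23.7% were called in these directions in wildtype and 21.1% and 21% in mutant lines. Without either wildtype replicate the 4 higher became 2. The BH3-only genes Bmf and Bcl2l11, whose products promote cell death like that of Bbc3, rose from 1.67 ± 0.70 to 14.7 ± 1.11 CPM (log2 3.17, edgeR adjusted p = 1.48e-05) and from 16.3 ± 0.52 to 39.0 ± 3.13 CPM (log2 1.26). Bok, a relative of Bax, fell from 25.1 ± 0.28 to 7.62 ± 0.77 CPM (log2 -1.72). Cycs, the cytochrome c gene, had a log2 fold change of -1.51, and the death inhibitor Bcl2 one of -0.84. These 5 genes were called in both genotypes. All 10 cell cycle genes fell in both genotypes (median log2 -2.31 in wildtype and -2.05 in mutant lines).

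**Figure D3:**
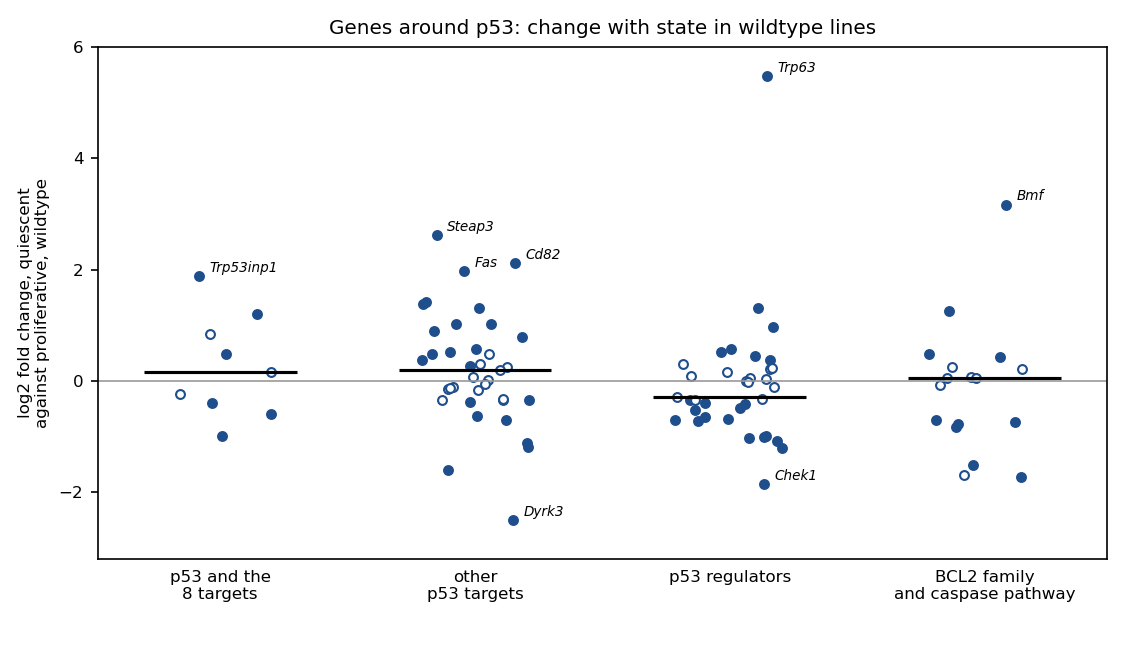
Log2 fold change of quiescent against proliferative wildtype cells (vertical axis) for each tested gene of 4 lists (horizontal axis, points spread sideways only for legibility). Filled points passed the test (edgeR adjusted p under 0.05), open points did not, and the thick bars are the list medians, 0.15 for p53 and the 8 targets, 0.19 for the other targets, -0.29 for the regulators and 0.05 for the BCL2 and caspase genes.

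The comparison of genotypes asked whether the p53 genes depended on Zac1. None of the 9 was called in proliferation, at quiescence, or for the difference of the genotype effect between the states (edgeR, adjusted p = 1.00 in each case). Of 15740 genes 0.00635% were called in each state, which is Plagl1 alone, and 0% for the difference. No p53 gene reached an unadjusted p under 0.05 in these 3 comparisons by edgeR or by DESeq2, and none was called by DESeq2. Of all 15740 genes, 451, 76 and 265 reached it by edgeR in proliferation, at quiescence and for the difference. Each number is below what this threshold lets through when no gene differs. That none of the 9 reached it therefore says little about Zac1. The log2 differences, mutant minus wildtype, lay between -0.16 for Mdm2 and 0.23 for Bbc3 in proliferation and between -0.18 for Trp53inp1 and 0.20 for Perp at quiescence. The value of Perp was -0.06 without wildtype replicate 1 and 0.52 without wildtype replicate 2.

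The 95% intervals, which are not adjusted for the number of genes, give the precision of these differences. For Trp53 they were -0.38 to 0.07 in proliferation and -0.18 to 0.26 at quiescence on the log2 scale. Bax at quiescence was bounded by -0.17 and 0.26, and Zmat3 by -0.30 and 0.19. They were widest for Bbc3, with -0.73 to 0.77 at quiescence, and for Perp, with -0.57 to 0.97. The fit gives each gene a spread shared by all groups, so intervals at quiescence also carry the spread between lines at day 2. For Mdm2 at quiescence the SE was 0.19 in this fit and 0.083 with the quiescent libraries alone. Since calls rest on adjusted p-values, differences beyond these bounds could also go uncalled with 2 lines per genotype. None of the other p53 targets, the regulators or the BCL2 and caspase genes was called between genotypes in either state.

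**Figure D4:**
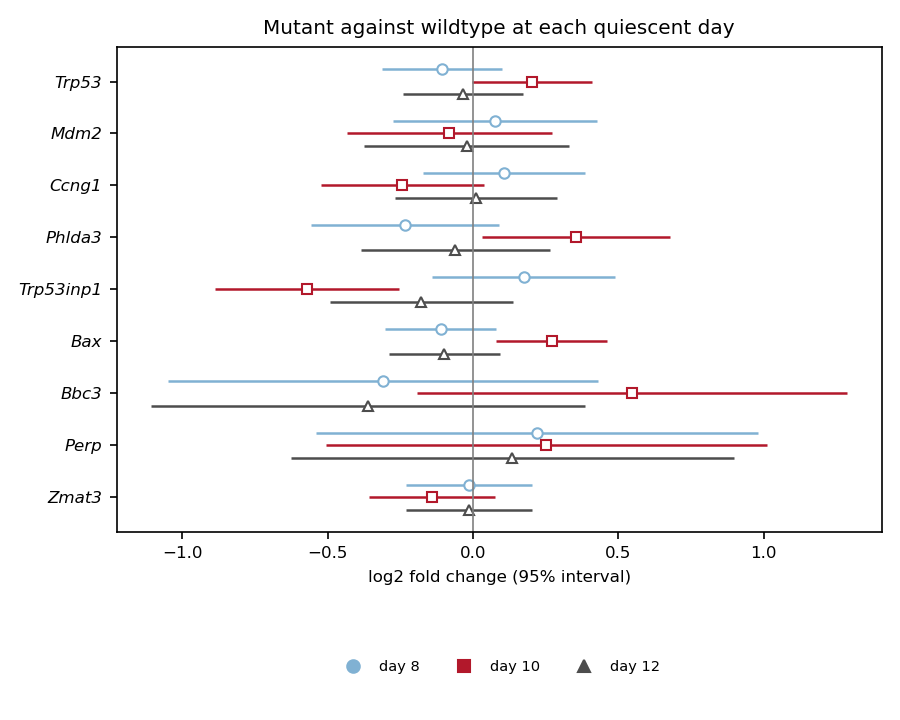
Log2 fold change of mutant against wildtype cells with its 95% interval (edgeR) for each gene at day 8 (circles), day 10 (squares) and day 12 (triangles). All symbols are open because none passed the test; the day 10 values of Trp53inp1 (-0.57), Bax (0.27) and Phlda3 (0.35) have intervals that leave out 0.

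Day by day, the genotypes stood apart most often at day 10. The mutant lines did not overlap with the wildtype lines for 1 of the 9 genes at day 2 (23.5% of 15439 genes), for 5 at day 8 (35% of genes), for 8 at day 10 (40.2% of genes) and for 2 at day 12 (21.1% of genes). At day 10 Trp53, Phlda3, Bax and Bbc3 were higher in both mutant lines and Mdm2, Ccng1, Trp53inp1 and Zmat3 lower, and Perp alone overlapped. None was called at any quiescent day, where 0.00648% of genes were called at each day. At day 10, 3 of the 9 genes had an unadjusted p under 0.05 in edgeR, and at days 8 and 12 none had. Of all 15439 genes, 1507 had such a p in edgeR at day 10, 276 at day 8 and 227 at day 12.

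Trp53inp1 showed the day 10 gap best. It stood at 350.5 and 350.1 CPM in the wildtype lines at day 10 and at 218 and 254 CPM in the mutant lines. At day 8 it was 310 and 299.9 CPM in wildtype and 361 and 327 CPM in mutant lines, the opposite order, and at day 12 it was 346 and 327 CPM against 287 and 307 CPM. The mutant lines thus went down from day 8 to day 10 and up again to day 12, while the wildtype lines went up to day 10. The log2 difference between genotypes was 0.17 at day 8, -0.57 at day 10 (SE 0.15, edgeR adjusted p = 0.475) and -0.18 at day 12.

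Bax and Phlda3 showed the reverse. Bax stood at 138 and 137 CPM in the wildtype lines at day 10 and at 160.2 and 172 CPM in the mutant lines, with a log2 difference of 0.27 (SE 0.09, edgeR adjusted p = 0.475). At days 8 and 12 both mutant lines lay below both wildtype lines, with differences of -0.11 and -0.10. Phlda3 stood at 90.3 and 116 CPM in the wildtype lines at day 10 and at 130.4 and 134 CPM in the mutant lines (log2 0.35, SE 0.15, edgeR adjusted p = 0.488). At day 8 its mutant lines were at 88.3 and 89.3 CPM, below the wildtype lines at 109 and 99.5 CPM.

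Bbc3 stood at 10.5 and 13.1 CPM in the wildtype lines at day 10 and at 16.9 and 17.5 CPM in the mutant lines. At day 8 the wildtype lines, at 15.6 and 12.2 CPM, were above the mutant lines at 11.3 and 11.1 CPM. Trp53 itself was at 80.1 and 84.8 CPM in wildtype and 94.7 and 94.9 CPM in mutant lines at day 10 (log2 0.20, edgeR adjusted p = 0.517). At day 8 its order was reversed, with 101 and 98.2 CPM in wildtype and 89.1 and 95.5 CPM in mutant lines.

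Whether day 10 departed from the mean of days 8 and 12 differently in the genotypes was tested with a contrast chosen after the data were seen. The contrast was -0.57 for Trp53inp1 (SE 0.18, edgeR adjusted p = 0.436), 0.38 for Bax (SE 0.11, edgeR adjusted p = 0.436), 0.50 for Phlda3 (edgeR adjusted p = 0.442) and 0.27 for Trp53 (edgeR adjusted p = 0.488). None of the 9 genes passed, and 0% of 15439 genes did, with 4 of the 9 at an unadjusted p under 0.05 in edgeR. Over all 15439 genes 1519 had an unadjusted p under 0.05 in edgeR for this contrast and 1507 for genotype at day 10, against 276 and 227 for genotype at days 8 and 12. The matching numbers over all genes in DESeq2 are not given here. Many genes outside the 9 thus also differed between genotypes at day 10, and whether the 9 did so more often than other genes was not tested. With day 10 left out of the quiescent sum, the genotype difference at quiescence changed sign for several of the 9 genes. It went from 0.04 to -0.05 for Trp53, from -0.02 to 0.10 for Ccng1 and from 0.06 to -0.16 for Phlda3. It went from -0.18 to 0.03 for Trp53inp1, from 0.04 to -0.09 for Bax and from 0.02 to -0.33 for Bbc3. With day 10 included the SEs of these genes ran from 0.098 for Bax to 0.33 for Bbc3. No value was called with or without day 10, and sign changes over all genes were not counted. What sets the day 10 cultures apart was not tested.

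Day 12 was also compared with day 8 as the 2 ends of quiescence, which leaves day 10 out. Between these days none of the 9 was called in wildtype lines, where 0.816% of 15439 genes were, or in mutant lines, where 1.09% were. Of the 10 cell cycle genes, 9 were called lower at day 12 in each genotype. Trp53 went from 101 and 98.2 CPM to 87.2 and 78.9 CPM in the wildtype lines, a log2 fold change of -0.26 (95% interval -0.47 to -0.05, edgeR adjusted p = 0.446), and it was the 1 gene of the 9 with an unadjusted p under 0.05 there. In mutant lines that gene was Ccng1, which went from 963 and 872 CPM to 723 and 781 CPM (log2 -0.29, edgeR adjusted p = 0.547). DESeq2 called none of the 9 in either genotype. Of all 15439 genes, 1214 had an unadjusted p under 0.05 in edgeR in wildtype lines and 1350 in mutant lines.

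The genes whose profiles over the 16 libraries lay closest to those of Trp53 were Tpm3, a tropomyosin, Eef1g, a translation elongation factor subunit, and Pgam1, a glycolytic enzyme. Their root mean square differences from Trp53 in centred log2(CPM + 1) were 0.07, 0.07 and 0.08, against a median of 0.43 over 9929 genes with a mean of at least 5 CPM. For Mdm2 they were Ddx46, Mum1l1 and Ythdc2 (0.09, 0.10 and 0.10, median 0.34), and for Ccng1 they were Zranb2, Morc3 and Mtf2 (0.07, 0.08 and 0.09, median 0.30). No p53 gene was among these nearest genes, which says little with 9929 candidates for each. Within the 9, the closest pair was Mdm2 and Ccng1 at 0.16, followed by Ccng1 and Bax at 0.20. The distances are not scaled to how much a gene varied, and the profiles of Ccng1 and Bax each had an SD of 0.19. These distances describe these libraries, which share 4 lines and a strong difference between day 2 and the later days.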

How the data were processed

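RNA was sequenced from 16 cultures of mouse embryonic fibroblasts. Stranded libraries were prepared from total RNA, per the labels' protocols. The submitters' processing notes name HTSeq 0.6.1p1 beside TopHat2 2.1.1, Bowtie2 2.2.9, bcl2fastq 2.18 and the mouse build mm9. The sources used here do not give the gene annotation, the strand setting of the counting or the treatment of repeated alignments, so overlapping and near-identical genes are uncertain. The table deposited by the authors holds whole-number read counts per gene, not normalized, and 0 of its columns belonged to other samples.

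To compare states and genotypes, the quiescent counts of a line (days 8, 10 and 12) were added up, which left 8 libraries and 4 groups; filterByExpr kept 15740 genes, with 4 residual degrees of freedom. Tests were edgeR quasi-likelihood tests (R 4.3.3, edgeR 4.0.16, TMM, robust) with Benjamini-Hochberg adjustment over all genes. For single days all 16 libraries formed 8 groups, with 15439 genes and 8 residual degrees of freedom. Both fits treat harvests of 1 line as independent. Standard errors were computed as |log2 fold change| divided by the root of F. An exact two-sided permutation test of 2 lines against 2 cannot go below p = 0.333, so the calls depend on variance estimates that borrow from all genes. The steps were also run on simulated counts with known changes. Those counts were drawn independently for each library, so the run cannot show what the pairing of harvests of a line does.

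Replicate libraries differed beyond counting error, with chi-square over its degrees of freedom at 32.4 to 69.6. A count of 3 corresponds to 0.0497 to 0.11 CPM. Harvests of the same line pair the libraries of states and days. Deviations from the group means correlated between states by 0.208 within wildtype and 0.196 within mutant lines. Between genotypes lines share only a number and a letter.

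The 9 genes and the lists were chosen with earlier results of these data known. Up to 6 called genes with the largest change in wildtype lines and a mean of at least 5 CPM were named per list, with Plagl1 and the 3 nearest profiles of Trp53, Mdm2 and Ccng1. One result that this rule picks is not reported here. Alternatives were RLE scaling, DESeq2 1.42.0, other filters on low counts (none, or at least 1 CPM), a replicate block, the libraries of a comparison alone, and leaving out each line or quiescent day. Promoters came from RefSeq (GRCm38.p6), another build than the counts, so no coordinates of counted genes are given.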

Additional observations from a re-analysis of the deposited data

How the results depend on the processing

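The falls of Trp53 and the rises of Trp53inp1 were called in both genotypes under every alternative. Wildtype calls among the 9 genes went from 6 to between 2 and 7 when 1 line was left out, with 2 (Trp53 and Trp53inp1) without wildtype replicate 1. Mutant calls went from 5 to between 2 and 6, and to 3 with no filter on low counts and 3 with the mutant libraries alone. Of 1206 values of single genes under an alternative, 1099 kept direction and side of the threshold, 15 gained a call, 23 lost one and 69 changed sign. None of the 69 was called with either sign, and 52 of them moved by less than 1 standard error. With day 10 left out, the genotype values at quiescence were -0.046 for Trp53, 0.10 for Ccng1, -0.16 for Phlda3, 0.028 for Trp53inp1, -0.090 for Bax and -0.33 for Bbc3, and the differences between states -0.13 for Phlda3 and -0.026 for Bax. Mdm2 for genotype at quiescence was -0.060 with day 8 left out, -0.0011 with no filter on low counts, -0.0047 with the stricter one and -0.0057 with those libraries alone. The difference between states of Ccng1 was -0.10 and -0.022 with day 8 or 12 left out and -4.9e-05 with no filter. Ccng1 for genotype at day 12 was -0.0031 with the stricter filter, and Zmat3 for the genotype difference of day 12 minus day 8 was 0.0028 with the libraries alone. The other sign changes came with 1 line left out, and the ranges over the lines follow. For the mutant states they were -0.021 to 0.53 for Phlda3. For genotype in proliferation they were -0.18 to 0.099 for Ccng1, -0.45 to 0.65 for Bbc3, -0.30 to 0.20 for Phlda3, -0.59 to 0.36 for Perp, -0.12 to 0.39 for Trp53inp1 and -0.51 to 0.11 for Mdm2. For genotype at quiescence they were -0.067 to 0.077 for Mdm2, -0.062 to 0.52 for Perp, -0.069 to 0.036 for Ccng1 and -0.065 to 0.10 for Bbc3. For the difference between states they were -0.038 to 0.44 for Mdm2, -0.17 to 0.19 for Ccng1, -0.71 to 0.56 for Bbc3, -0.16 to 0.37 for Phlda3 and -0.0057 to 0.61 for Perp. For day 12 against day 8 in wildtype lines they were -0.18 to 0.022 for Phlda3. For day 12 against day 8 in mutant lines they were -0.0038 to 0.19 for Phlda3, -0.64 to 0.25 for Bbc3, -0.070 to 0.14 for Perp and -0.030 to 0.066 for Zmat3. For genotype at day 8 they were -0.068 to 0.58 for Perp, -0.053 to 0.19 for Mdm2 and -0.034 to 0.0039 for Zmat3. For genotype at day 10 they were -0.054 to 0.62 for Perp. For genotype at day 12 they were -0.12 to 0.034 for Trp53, -0.029 to 0.035 for Ccng1, -0.066 to 0.34 for Perp, -0.047 to 0.0069 for Zmat3, -0.087 to 0.031 for Mdm2, -0.17 to 0.034 for Phlda3 and -0.91 to 0.039 for Bbc3. For the genotype difference of day 12 minus day 8 they were -0.23 to 0.0038 for Perp, -0.051 to 0.041 for Zmat3, -0.21 to 0.015 for Ccng1, -0.012 to 0.031 for Bax and -0.57 to 0.32 for Bbc3. For the day 10 contrast they were -0.059 to 0.16 for Perp. The cause was not tested.

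Over all genes, 7486 were called in the wildtype states and 4185 to 7755 without 1 line (4380 without wildtype replicate 2), where the construction leaves 1 library in a group. For genotype, 1 gene was called in proliferation (3 by DESeq2, 1 to 3 without 1 line) and at quiescence (0 with those libraries alone, 1 to 4 without 1 line), and 0 for the difference (1 by DESeq2). At days 8, 10 and 12 it was 1 each, 0 with the libraries of a day alone, and 0 to 2, 0 to 51 and 0 to 1 without 1 line, with 15 at day 10 by DESeq2. The day 10 contrast called 0 (22 by DESeq2, 0 to 6 without 1 line). Day 12 against day 8 gave 126 genes in wildtype (306 by DESeq2, 23 alone, 0 to 192 without 1 line) and 168 in mutant lines (357 by DESeq2, 0 alone, 29 to 74 without 1 line).

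With the line as a replicate block, day 12 against day 8 gave 304 genes in wildtype and 319 in mutant lines, and besides Perp, Mdm2 and Bax no call among the 9 genes changed. A block on the replicate number, which pairs lines of different genotypes, gave 2 genes at day 10 and called none of the 9. Lines of the same number deviated together by 0.289 in proliferation and 0.154 at quiescence, with 2 pairs each.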

Other observations

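Among relatives and regulators of p53 that the account above leaves out, Trp73, the third gene of the p53 family, was read at a mean of at most 0.0278 CPM in any group, under the level that 3 reads give in the shallowest library. Mdm4, the partner of Mdm2 that blocks p53 without degrading it, went from 46.1 ± 1.63 to 68.7 ± 8.26 CPM in wildtype lines (log2 0.57, SE 0.15, edgeR adjusted p = 0.0103) and by a log2 fold change of 0.55 in mutant lines (edgeR adjusted p = 0.0144), while Mdm2 was lower. The ribosomal proteins Rpl5 and Rpl11, which bind Mdm2 when ribosome assembly fails, fell by log2 fold changes of -0.66 and -0.72 in wildtype lines (edgeR adjusted p = 0.00195 and 4.23e-04).

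The sestrins Sesn1 and Sesn2, p53 targets that restrain growth signalling, rose by log2 fold changes of 1.31 (SE 0.13, edgeR adjusted p = 2.93e-05) and 1.02 (SE 0.14, edgeR adjusted p = 2.94e-04) in wildtype lines. Gtse1, a p53 target that is also highest in dividing cells, fell by -1.19 (SE 0.12, edgeR adjusted p = 3.91e-05), beside cell cycle genes that fell in every case. These genes were chosen after their values were seen.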
